A study of Homo sapiens with 12 samples.

Results

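EdU-seq with hydroxyurea marks the first stretches of the genome to be copied after mitosis, and 385 of the 4886 regions so marked in at least 1 condition were present in 3 conditions and missing only in the fourth, shNT. They were chosen by joining overlapping or touching regions of the 4 deposited lists on the 22 autosomes and keeping each merged region that held a region of shNT + OHT, of shCDK12 and of shCDK12 + OHT but none of shNT. The cells were U2OS, a human osteosarcoma line, expressing MycER, a chimera of the transcription factor Myc and a hormone-responsive estrogen receptor domain. They carried a non-targeting short hairpin RNA (shNT) or a hairpin against the kinase CDK12 (shCDK12). Cells of all 4 conditions received 1 µg/mL doxycycline, which induces the hairpin, then 100 ng/mL nocodazole for 8 h, which arrests cells in mitosis, and after release 25 µM EdU, a thymidine analogue, with 2 mM hydroxyurea for 24 h. Both OHT conditions also received 300 nM 4-hydroxytamoxifen (OHT) for 40 h, which activates MycER. The shNT condition, the one that lacks the regions, was therefore without OHT and without CDK12 knockdown but had doxycycline, nocodazole and hydroxyurea like the others. The labels name 3 samples per condition, 12 in all, but the deposited lists hold 1 merged list per condition, so no value below has a replicate error, no test between conditions was made, and intervals cover counting error or the spread between regions only. How many clones or hairpin sequences stand behind each condition is not given in the sources used here.

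DNA replication starts at origins, sites that are prepared in G1 and fired in S phase in a broadly fixed order, with open, transcribed chromatin tending to replicate early. Hydroxyurea inhibits ribonucleotide reductase and so starves forks of nucleotides, and EdU taken up under it stays close to the origins that fired first. Myc activation is known to change when and where cells enter DNA synthesis and to raise conflicts between transcription and replication, and CDK12 phosphorylates RNA polymerase II during elongation and sustains the expression of long genes, among them many of DNA repair.

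The regions were selected on their absence from shNT, so the count describes the rule and was not tested. They made up 7.88% of all merged regions and 4.40% of the merged length (26.6 of 603 Mb). Another 2932 merged regions were held by all 4 lists, and these are called the shared regions. In total 540 merged regions were missing from exactly 1 list, of which 385 lacked shNT (71.3%, Wilson 95% interval 67.3 to 75), 85 lacked shCDK12 + OHT, 60 lacked shCDK12 and 10 lacked shNT + OHT. The shNT list was the shortest of the 4, with 3796 autosomal regions against 4676 in shCDK12 + OHT, 4799 in shCDK12 and 4556 in shNT + OHT. Among the 1628 merged regions absent from shNT, the 385 made up 23.6% (interval 21.6 to 25.8). They made up 45.7% of the 842 of these held by shNT + OHT, 50.5% of the 762 held by shCDK12 and 31.0% of the 1241 held by shCDK12 + OHT.

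The predominance of shNT among the lists that alone lacked a region did not hold when limits were set on the scores of the lists. With a common minimum score (the authors' value for each region, here at least 145.5 in every list), 168 merged regions were missing only in shNT and 235 only in shCDK12, against 16 in shNT + OHT and 23 in shCDK12 + OHT. When only the 3796 regions of highest score in every list were used, 114 were missing only in shNT, 121 only in shCDK12, 92 only in shCDK12 + OHT and 31 only in shNT + OHT. The share of shNT was then 31.8% (interval 27.2 to 36.8) of the 358 regions missing from 1 list. Joining neighbours up to 10 kb apart, and leaving out regions narrower than 10 kb, kept it at 69.2% and 70.0%. Whether scores of different lists share a scale is not given in the sources used here. The plot of counts and chromosomes sets the first of these counts beside the share on each chromosome.

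**Figure D1:**
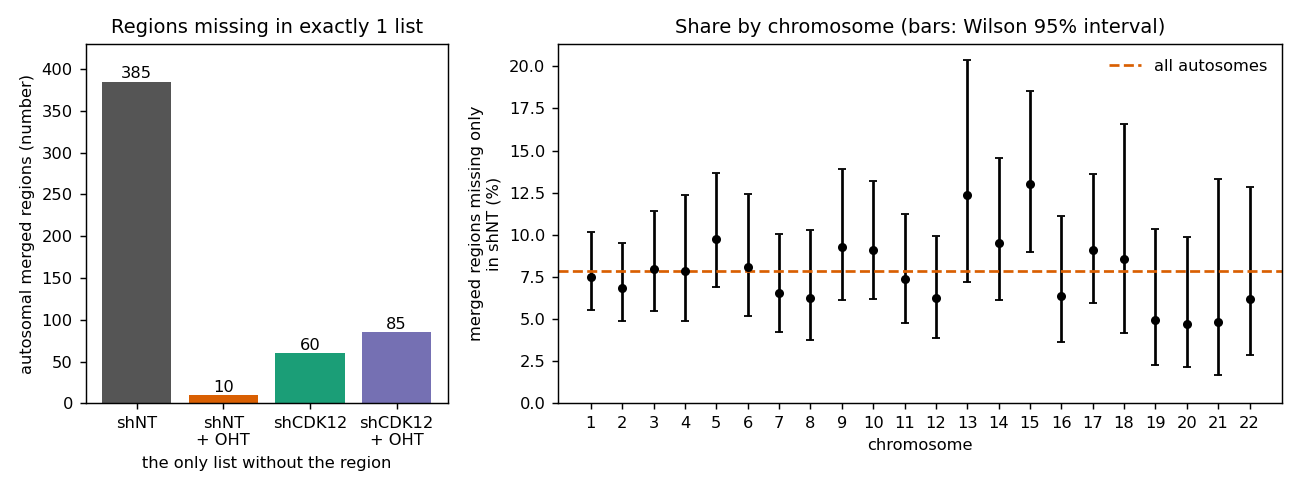
Left, number of autosomal merged regions missing from exactly 1 list, by the list that lacks them, and right, the percent of merged regions on each chromosome that are missing only in shNT, with Wilson 95% intervals and the genome-wide 7.88% as a line. The 385 regions lacking shNT exceed the 10, 60 and 85 that lack another list, and only the interval of chromosome 15 lies wholly above the line.

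The 385 regions were narrower than the shared regions and held fewer reads, by their medians. The merged regions had a median width of 61.2 kb (95% interval of the median 55.6 to 64.4) and ranged from 0.4 to 243.6 kb, against a median of 109.6 kb in the shared regions. Regions missing only in shCDK12, in shCDK12 + OHT or in shNT + OHT had medians of 60.8, 52 and 22.6 kb. A width below that of the shared regions was thus not particular to the 385. Of the 385, 298 were 10 to 100 kb wide, 75 were wider than 100 kb and 12 were narrower than 10 kb. Within single lists the median width of the 385 was 57.6 kb for shCDK12 + OHT (52.8 to 64.0), 35.6 kb for shCDK12 (32.4 to 37.6) and 33.6 kb for shNT + OHT (31.6 to 35.6). The shared regions had medians of 99.4, 83.2 and 91.2 kb. The 385 held a median of 1119 reads in shNT + OHT (range 83 to 5252), 443 in shCDK12 (range 54 to 2130) and 1619 in shCDK12 + OHT (range 79 to 7392). Reads are whole numbers summed over the replicates and are not scaled for depth. The autosomal regions held 28573223 reads in shCDK12 + OHT, 13220717 in shCDK12, 49994993 in shNT + OHT and 17261176 in shNT. The 385 took 0.998% of the reads of shNT + OHT, 1.58% of those of shCDK12 and 2.53% of those of shCDK12 + OHT, on 2.95%, 3.56% and 4.68% of the called length.

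They also ranked low by score in the lists that held them, more so in shNT + OHT than in the others. The median score percentile was 15.1 in shNT + OHT (13.5 to 16.6), 23 in shCDK12 (21.0 to 25.0) and 33.9 in shCDK12 + OHT (31.6 to 35.9). In shNT + OHT all 385 lay below the middle of the list and 310 in its lowest 25%. In shCDK12, 375 lay below the middle and 213 in the lowest 25%. The list of shCDK12 + OHT had 323 and 118 of them there. The highest percentile reached by any of the 385 was 76.6 in shCDK12 + OHT, 63.1 in shCDK12 and 49.6 in shNT + OHT. Low ranks were not particular to the 385. Regions missing only in shCDK12 had median percentiles of 9.69 in shNT, 32.3 in shNT + OHT and 15.1 in shCDK12 + OHT. Those missing only in shCDK12 + OHT had 27.2 in shNT, 29.9 in shNT + OHT and 14.6 in shCDK12. The 10 missing only in shNT + OHT had medians of 39.1 to 48.6.

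The same regions were wider with both perturbations than with either alone. In shCDK12 + OHT 328 of 385 were wider than in shNT + OHT, 42 were narrower and 15 had equal width, a share wider of 85.2% (Wilson 95% interval 81.3 to 88.4), where 58.2% of all merged regions held by both lists were wider. The median difference was 0.62 on the log2 scale (0.52 to 0.74), which is 1.53-fold, and 126 (32.7%) were more than 2-fold wider, against 7.64% of all merged regions held by both lists and 3.92% of the shared regions. More than 2-fold narrower was 1 of them, against 1.01% of all held by both. In the shared regions the median was 0.02 and 53.6% were wider. A further set held the 871 shared regions with a score percentile in shNT + OHT no higher than the highest among the 385 (49.6). In this set the median was 0.17 and 64.5% were wider (61.3 to 67.6). The set was defined after the values were seen. Its scores were not matched to those of the 385, whose median percentile was 15.1. Against shCDK12, shCDK12 + OHT was again wider in 328 and narrower in 42 (85.2%), with a median of 0.50 (0.43 to 0.60), where 72.2% of all regions held by both were wider. Widths in shCDK12 and shNT + OHT lay closer together, with a median difference of 0.07 (0 to 0.11), 205 wider in shCDK12 and 157 narrower, a share of 53.2% (48.3 to 58.2) against a background of 34.0%. The widest of the 3 versions was that of shCDK12 + OHT in 293 regions (76.1%), of shNT + OHT in 38 and of shCDK12 in 35, with 19 ties. Among all 3317 merged regions held by these lists, shCDK12 + OHT was the widest in 51.1%, and among the 871 shared regions of low score in 56.7%. The comparisons share lists, so they are not independent of each other.

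Regions missing from another list had other proportions. In the 60 regions missing only in shCDK12, the width in shCDK12 + OHT differed from that in shNT + OHT by a median of -0.02 on the log2 scale, and 48.3% were wider. In the 85 missing only in shCDK12 + OHT, the width in shCDK12 differed from that in shNT + OHT by a median of -0.43, and 17.6% were wider in shCDK12.

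**Figure D2:**
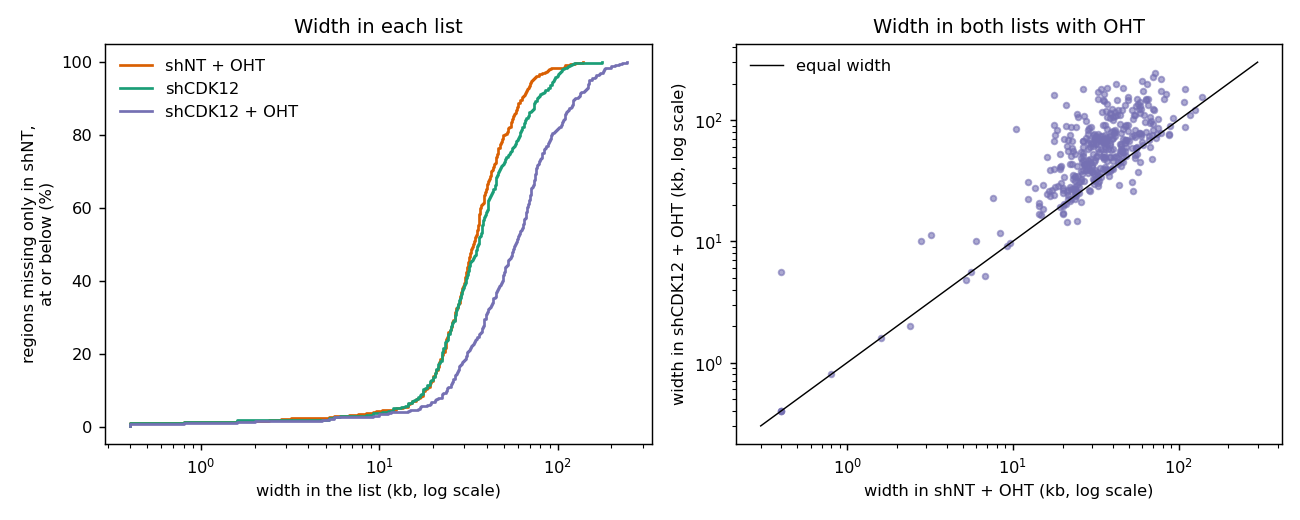
Left, cumulative share of the 385 regions by width in kb (log axis) in each of the 3 lists that hold them, and right, the width in shCDK12 + OHT against that in shNT + OHT (kb, both axes log), 1 point per region, with the line of equal width. The medians are 33.6, 35.6 and 57.6 kb, and 328 points lie above the line.

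The extra width lay around a core common to the 3 lists. Of the bases of the 385 regions, 44.6% (11.8 Mb) were called in all 3 lists, 21.9% (5.81 Mb) in exactly 2 and 33.5% (8.91 Mb) in 1. Bases called in shCDK12 + OHT alone made up 30.4% (8.07 Mb), those in shNT + OHT alone 1.45% and those in shCDK12 alone 1.71%. The core had a median of 27.6 kb (26.0 to 28.8), which was a median of 92.3% of the width in shNT + OHT, 86.3% of that in shCDK12 and 53.8% of that in shCDK12 + OHT. In 269 of 385 regions (69.9%) the limits in shNT + OHT lay inside those in shCDK12 + OHT, against 39.7% of all held by both, and in 260 (67.5%) those in shCDK12 did, against 48.5%. The limits were identical in all 3 lists in 8 regions, and in 1 region the 3 lists had no base in common. These 2 counts were not set beside counts over other merged regions. A region was split into several called pieces in 3 cases in shCDK12 + OHT, 33 in shCDK12 and 18 in shNT + OHT. Of the 2932 shared regions, 342, 668 and 403 were split, so the order of the lists was the same there. The extra width of shCDK12 + OHT had a median of 4.8 kb towards the nearer shNT region and 5.6 kb on the other side. The nearer side was larger in 182 of 380 regions and the farther in 186. A region that reached shNT was left out by the rule. The nearer side was set from merged limits that include the extra width. These values therefore cannot show whether the extra width leaned to either side.

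Read density, in reads per kb, placed the 3 lists in the same order as the median width. Densities of different lists are not on one scale, so each was divided by the median over the shared regions of the same list. The 385 had a median of 34.3 reads per kb in shNT + OHT (range 17.9 to 270), 12.9 in shCDK12 (range 9.67 to 157.5) and 28.1 in shCDK12 + OHT (range 17.9 to 330), where the shared regions had 66.4, 20.1 and 39.9. The relative density was thus 0.517 in shNT + OHT (95% interval of the median 0.509 to 0.528), 0.639 in shCDK12 (0.626 to 0.653) and 0.704 in shCDK12 + OHT (0.689 to 0.714). It was higher in shCDK12 + OHT than in shNT + OHT in 375 of 385 regions, against 58.0% of all merged regions held by both. It was higher in shCDK12 than in shNT + OHT in 359, against 56.3%, and higher in shCDK12 + OHT than in shCDK12 in 289, against 53.8%. All 3 orders held together in 265 regions (68.8%), against 28.7% of all regions held by the 3 lists. The 871 shared regions of low score in shNT + OHT, themselves chosen on that score, had relative densities of 0.744 in shCDK12 + OHT (0.733 to 0.759), 0.725 in shCDK12 (0.713 to 0.744) and 0.654 in shNT + OHT (0.644 to 0.665). In them shCDK12 + OHT exceeded shNT + OHT in 74.4%, shCDK12 exceeded shNT + OHT in 74.1% and shCDK12 + OHT exceeded shCDK12 in 51.1%, and the full order held in 31.9%. Their scores were not matched to those of the 385. Set against the nearest shared region on the same chromosome instead, the 385 had ratios of 0.599 (0.575 to 0.624) in shNT + OHT, 0.708 (0.675 to 0.730) in shCDK12 and 0.758 (0.727 to 0.781) in shCDK12 + OHT. In the same order of lists, 362, 337 and 314 of them were less dense than that neighbour. The share of other merged regions less dense than their nearest shared region was not worked out, so these counts have no background.

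The lists give reads only inside called regions, so the level of shNT at these places was not analysed here. For orientation, the density in each list was scaled to shNT with the median ratio of the shared regions (0.365 for shNT + OHT, 1.21 for shCDK12 and 0.609 for shCDK12 + OHT) and set beside the weakest regions that the shNT list did contain. The lowest 5% of the shNT list lay under 13.1 reads per kb, its lowest region had 9.47 and its median was 22.4. The scaled medians of the 385 were 12.5 reads per kb from shNT + OHT (12.3 to 12.8), 15.5 from shCDK12 (15.2 to 15.9) and 17.1 from shCDK12 + OHT (16.7 to 17.4). By the level of shNT + OHT, 137 of 385 (35.6%) lay above 13.1, where 82.0% of all merged regions in that list did. By the level of shCDK12 350 did (90.9%, against 95.9%), and by that of shCDK12 + OHT 376 did (97.7%, against 94.8%). Scaled by the ratio of the nearest shared region instead, the counts were 172 (44.7%), 274 (71.2%) and 306 (79.5%) in the same order of lists, so that the lists lay closer together. The shares over all merged regions were not worked out with this scaling. By shCDK12 + OHT but not by shNT + OHT 240 lay above 13.1 with the median ratio (62.3%, against 12.5% of all held by both), in the opposite case 1. Those above it by all 3 lists numbered 133 (34.5%, against 87.9%). Regions missing only in shCDK12 had relative densities of 0.597 in shNT, 0.604 in shNT + OHT and 0.601 in shCDK12 + OHT, and those missing only in shCDK12 + OHT had 0.743 in shNT, 0.613 in shNT + OHT and 0.605 in shCDK12. The 10 missing only in shNT + OHT had medians of 0.872 in shNT, 2.28 in shCDK12 and 1.57 in shCDK12 + OHT, with intervals that ran from 0.501 to 8.11, from 0.585 to 8.56 and from 0.558 to 5.14.

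**Figure D3:**
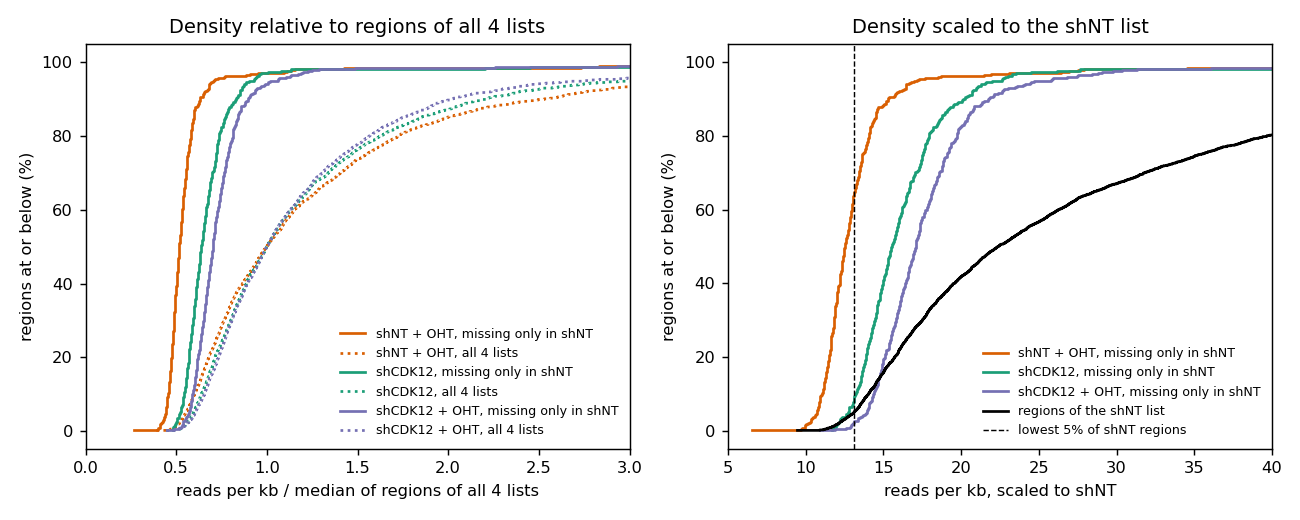
Cumulative shares of the 385 regions by reads per kb in each list, left divided by the median of the shared regions (dotted curves, "all 4 lists") and right scaled to shNT beside the regions of the shNT list (black), with the lowest 5% of that list (13.1 reads per kb) as a dashed line. The scaled medians of the 385 regions rise from 12.5 in shNT + OHT to 15.5 in shCDK12 and 17.1 in shCDK12 + OHT.

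The widest merged regions took their full or nearly full extent from shCDK12 + OHT. The widest lay on chromosome 2 (hg19, 23697201 to 23940800, 243.6 kb). Its width was 72.0 kb in shNT + OHT with 2332 reads, 64.4 kb in shCDK12 with 737 and 243.6 kb in shCDK12 + OHT with 7079. Its core spanned 55.6 kb, and the nearest shNT region lay 77.2 kb away. The next was on chromosome 9 (129145201 to 129373600), with 70.0 kb and 2596 reads in shNT + OHT, 72.8 kb and 1093 reads in shCDK12, and 228.4 kb and 7392 reads in shCDK12 + OHT. Their densities in shCDK12 + OHT were 29.1 reads per kb (exact Poisson 95% interval 28.4 to 29.7) and 32.4 (31.6 to 33.1), beside a median of 28.1 over the 385. On chromosome 2 (111430401 to 111650000) and chromosome 1 (21105601 to 21315200), shCDK12 also reached beyond shNT + OHT. The widths in the first were 78.4 kb in shNT + OHT, 176.8 in shCDK12 in 2 pieces and 219.6 in shCDK12 + OHT, and in the second 60.0, 100.0 in 2 pieces and 209.6 kb. The other 2 of the 6 widest were on chromosome 12 (3614401 to 3814400), with 42.0, 50 and 199.6 kb in the same order of lists, and on chromosome 3 (32888401 to 33086000), with 64.4, 122.8 and 197.6 kb. All 6 were widest in shCDK12 + OHT. Merged width joins the 3 lists, and shCDK12 + OHT was the widest list in 76.1% of the 385. Choosing regions by merged width therefore favours this order.

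**Figure D4:**
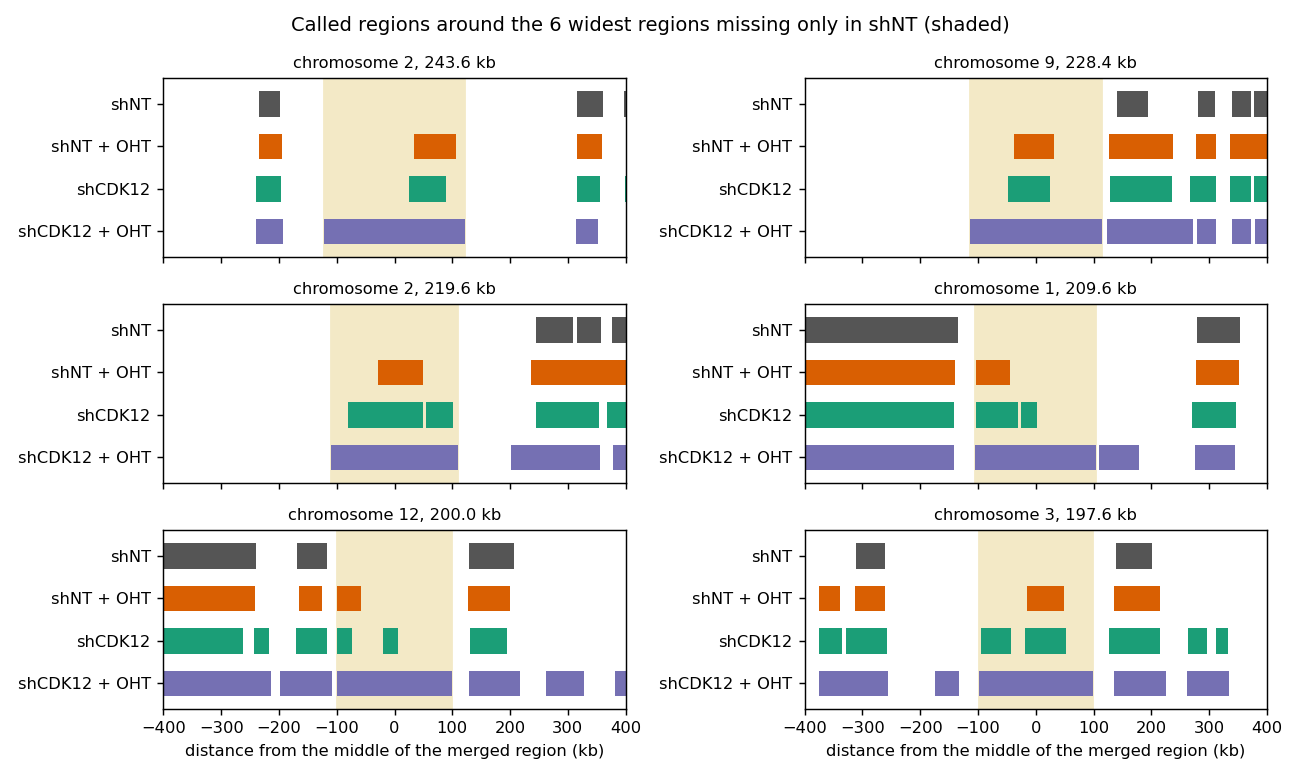
Regions called in the 4 lists around the 6 widest of the 385 regions, 1 panel each, as bars against distance in kb from the middle of the merged region. In each panel the bar of shCDK12 + OHT is longer than those of shNT + OHT and shCDK12, and the shNT row is empty under the merged region, with the nearest shNT region 17.2 to 134.8 kb away.

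The ratio of widths ranged from 14.0 to 0.492. The highest was that of a small region on chromosome 9 (70004801 to 70010400), 5.6 kb with 166 reads in shCDK12 + OHT against 0.4 kb in both shNT + OHT (83 reads) and shCDK12 (54 reads). On chromosome 5 (38776401 to 38938400) the ratio was 9.20, with 17.6 kb and 667 reads in shNT + OHT, 38.0 kb and 564 reads in shCDK12, and 162.0 kb and 4685 reads in shCDK12 + OHT. On chromosome 17 (108001 to 192800) it was 8.15, with 10.4, 23.2 and 84.8 kb. The lowest ratio was on chromosome 2 (241920401 to 241973600), where the region measured 26.0 kb in shCDK12 + OHT, 32.0 in shCDK12 and 52.8 in shNT + OHT. The next lowest, on chromosome 5 (816001 to 873600, 0.592) and chromosome 7 (101998401 to 102022800, 0.607), were widest in shCDK12 and in shNT + OHT. All 3 of low ratio lay within 20.4 kb of an shNT region.

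Regions that ranked highest in all 3 lists were of 2 kinds. Ranked by the lowest of their 3 score percentiles, 4 of the first 6 were 0.4 to 0.8 kb wide, each with the same limits in the 3 lists, and had few reads packed in 1 or 2 windows. The one on chromosome 4 (167944401 to 167945200) held 240 reads in shCDK12 + OHT, 95 in shCDK12 and 145 in shNT + OHT, or 300.0, 119 and 181 reads per kb. Those on chromosome 7 (157254001 to 157254400), chromosome 9 (69710801 to 69711200) and chromosome 11 (109065601 to 109066000) held 79 to 132 reads in shCDK12 + OHT, 55 to 63 in shCDK12 and 91 to 108 in shNT + OHT. Scores reached at most 1000 per 400 bp window, which sets the percentile of such single windows. The other kind was broad. On chromosome 1 (55200001 to 55318400) the widths were 110.8 kb in shCDK12 + OHT, 106.0 in shCDK12 and 117.2 in shNT + OHT, with 37.3 (36.2 to 38.4), 12.9 (12.2 to 13.6) and 39.1 (38.0 to 40.3) reads per kb. On chromosome 11 (76085601 to 76162400) they were 75.2, 68.0 and 68.8 kb in this order, with 45.2 (43.7 to 46.8), 18.8 (17.8 to 19.9) and 42.0 (40.5 to 43.6) reads per kb. These broad regions differed little between the 3 lists in width, and their cores spanned 100.0 and 64.8 kb.

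The 385 regions lay at all distances from the regions that shNT did hold. The median distance to the nearest shNT region was 97.2 kb (79.6 to 116.8), with 121 regions within 50 kb, 194 within 100 kb (50.4%), 325 within 500 kb and 27 beyond 1000 kb. For regions missing only in shCDK12 the distance to the nearest shCDK12 region had a median of 157.6 kb (72.0 to 344.4), and for those missing only in shCDK12 + OHT the distance to that list was 152.4 kb (90.4 to 281.2). The intervals of the 3 medians overlap. The nearest 3 regions lay 1.2 to 2.4 kb from an shNT region. One on chromosome 10 (75779601 to 75902000) was 122.4 kb wide in shCDK12 + OHT, 98.4 in shCDK12 and 58.0 in shNT + OHT, and began 1.2 kb from the shNT region. Its density of 51.4 reads per kb in shCDK12 + OHT (50.1 to 52.7) was 1.29 times the median of the shared regions, although that in shNT + OHT was 0.450 times. Those on chromosome 6 (158524401 to 158596800) and chromosome 7 (102729601 to 102816000) were 1.2 and 2.4 kb away.

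The farthest lay 3657.6 kb from any shNT region, on chromosome 6 (126252001 to 126310800), with 25.6 kb and 921 reads in shNT + OHT, 26.8 kb and 316 reads in shCDK12, and 54.8 kb and 1440 reads in shCDK12 + OHT. The regions on chromosome 5 (46322401 to 46384800) and chromosome 13 (24704401 to 24742400) were 3044 and 2845.6 kb away. Their densities in shNT + OHT were 30.4 (28.7 to 32.2) and 38.6 (36.7 to 40.6) reads per kb, on either side of the median of 34.3. Distance and merged width were hardly related over the 385 (Spearman's rho -0.10, a description across regions).

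**Figure D5:**
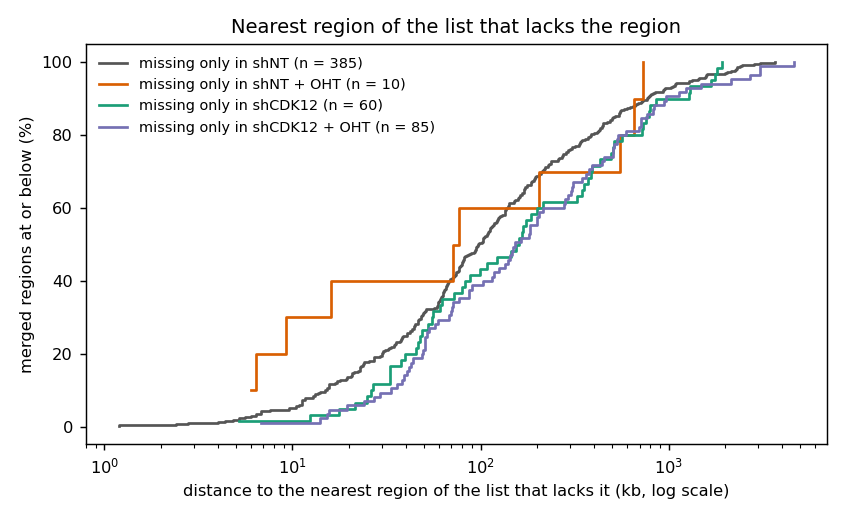
Distance in kb (log axis) from each region to the nearest region of the list that lacks it, as cumulative shares, for regions missing only in 1 of the 4 lists. The medians are 97.2 kb for shNT, 157.6 for shCDK12, 152.4 for shCDK12 + OHT and 74 for the 10 regions missing only in shNT + OHT.

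Between 2 neighbouring shNT regions on a chromosome lay 3774 gaps, of which 308 held at least 1 of the 385 regions. Of these gaps 250 held 1, 50 held 2 and 8 held 3 or more, up to 5. Gaps with such a region had a median width of 592.6 kb (545.2 to 712.4) against 120.6 kb for all gaps. A gap must be wider than the region it holds, and a longer gap has more room, so the rule alone favours this order. Further merged regions absent from shNT were not set beside these gaps. At least 1 of the 385 lay in 14.5% of the 2066 gaps over 100 kb, in 21.0% of the 853 over 500 kb and in 20.8% of the 562 over 1000 kb. The other 5 regions lay outside the first or last shNT region of their chromosome. In the order of merged regions 290 were next to none of the others, 38 pairs and 5 groups of 3 followed each other directly, and 1 group held 4. How many would have no such neighbour if the 385 were scattered among the merged regions was not worked out.

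The group of 4 ran over 571.6 kb of chromosome 3, from 125589601 to 126161200. From left to right, the merged widths were 164.4, 146.8, 96.8 and 104.8 kb. In shNT + OHT the same regions measured 35.6, 57.2, 62.8 and 92.0 kb, and in shCDK12 + OHT 164.4, 135.6, 96.8 and 103.6 kb. The ratio of these widths fell along the group from 4.62 to 2.37, 1.54 and 1.13, and the last region ended 15.6 kb from an shNT region. Of the 5 groups of 3, the first in genome order, on chromosome 5 (43303601 to 43528800), had widths in shNT + OHT of 36.0, 31.6 and 21.6 kb and in shCDK12 + OHT of 90.8, 50 and 26.4 kb. The next shNT region to its right lay 5900 kb beyond, and the one to its left 176.0 kb before.

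Every autosome held some of the 385. Their share of the merged regions ran from 4.69% on chromosome 20 to 13.0% on chromosome 15, where 25 of 192 regions were missing only in shNT (Wilson 95% interval 8.98 to 18.5). Chromosome 15 was the only autosome whose interval left out 7.88%, among 22 looked at. Chromosome 13 had 12.4% (7.22 to 20.4) and chromosome 19 had 4.92%. Within 5 Mb of the first or last called region of a chromosome lay 48 of the 385 (12.5%, interval 9.53 to 16.1), and 546 of all merged regions (11.2%, 10.3 to 12.1).

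Just outside the rule were regions of all 4 lists that shNT barely touched. The least covered was on chromosome 4 (76794801 to 76837200), a merged region of 42.4 kb in which shNT had a single window of 0.4 kb, or 0.943% of the bases, with 143 reads. It measured 42.4 kb in shCDK12 + OHT, 7.6 in shCDK12 and 3.2 in shNT + OHT. The next, on chromosome 4 (191027601 to 191044400) and chromosome 2 (89216001 to 89224000), had 4.76% and 5% of their bases in shNT. Just inside it were the regions 1.2 kb from an shNT region.

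On 13 of 22 autosomes the last regions lay beyond the hg38 chromosome end, by up to 2390883 bp. The reference at hand was hg38, so genes and sequence at these regions were not analysed here.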

How the data were processed

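The deposited files hold 1 list of broad regions per condition, from the merged reads of 3 samples. The submitters' processing notes name hg19 and mm10, BWA 0.6.2, SAMtools and SICER, without their roles. Each row of a deposited list gives the region limits on a grid of 400 bp windows, a read count (whole numbers, not scaled to library size) and a score made by the authors, at most 1000 per window. No gap within a list was shorter than 4400 bp. Coordinates are those of the lists, read as hg19 and counted from 1. Any control library or removal of duplicates is not given in the sources used here.

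Regions that overlapped or touched were merged across lists on the autosomes. Where a list had several pieces in a merged region, widths and reads were summed. Intervals of medians came from binomial order statistics, those of shares were Wilson's and those of densities exact Poisson, all at 95%. They cover counting error or the spread between regions only, reads may include PCR copies, and regions are not independent replicates. No test was made, since the lists hold merged replicates. Full library depth was not used here, and the reads inside regions stand for the depth of each list.

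Named are the 6 widest regions, the 6 highest by the lowest score percentile of the 3 lists, the 3 nearest to and 3 farthest from shNT, the 3 highest and 3 lowest ratios of width in shCDK12 + OHT to shNT + OHT, the 2 runs with the most regions (ties, here among 5 runs of 3, went to the lower chromosome and start), and 3 regions just outside the rule. The regions and rules were chosen with earlier results of these data known. The scaling alternatives, the limits of the lowest 10% and 1% and the shared regions of low score were chosen after seeing the values. The merging was checked on made-up lists of 1350 regions, where 200 of 200 planted regions were recovered. The scripts ran under Python 3.11.15 with pandas 2.3.3, numpy 2.4.6, matplotlib 3.10.9 and scipy 1.17.1.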

Additional observations from a re-analysis of the deposited data

Results flagged for a closer look

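The sex chromosomes were left out of the comparisons, and the X chromosome held 9 further merged regions of the same kind, present in the 3 other lists and missing only in shNT. They were 9 of 97 merged regions there (9.28%, Wilson 95% interval 4.96 to 16.7), an interval that includes the autosomal 7.88%, and had a median width of 47.2 kb.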

How the results depend on the processing

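No paired analysis was possible because the replicates were merged into 1 list per condition before deposit, and leaving out a replicate could not be done for the same reason. With a common minimum score the number of regions missing only in shNT fell from 385 to 168, with a median width of 74.2 kb, relative densities of 0.727 in shCDK12 + OHT, 0.654 in shCDK12 and 0.507 in shNT + OHT, and 168, 165 and 70 regions above the lowest 5% of shNT after scaling from these lists. With equally long lists 114 remained, with a width of 74.2 kb, a distance of 76.8 kb to the nearest shNT region, a relative density of 0.725 in shCDK12 + OHT, and 114, 114 and 60 above the lowest 5%. Fewer regions enter by construction in both. Of the 31 named regions, 19 and 16 were still regions missing only in shNT. The median distance was 117 kb when neighbours up to 10 kb apart were joined and 123.8 kb when regions with shNT within 20 kb were dropped. Without chains of overlaps the width was 68.6 kb, the share wider in shCDK12 + OHT than in shNT + OHT 88.4% and the relative density in shCDK12 + OHT 0.720. Leaving out regions under 10 kb gave a relative density of 0.530 in shNT + OHT. Shared regions were also limited to the range of widths of the 385 in each list, without matching within that range. The relative densities were then 0.752 in shCDK12 + OHT, 0.709 in shCDK12 and 0.601 in shNT + OHT. With the lowest 10% or 1% of shNT as the limit, 79 or 286 regions were above it by shNT + OHT. Adding the sex chromosomes, or counting shNT as absent under 10% of a region, left the medians and shares among the 11 results inside the 95% interval of the reported value and the counts within 1.5 times the reported count. For the other values that moved the cause was not tested.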
